A study of Rattus norvegicus with 8 samples.

Results

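The mid-night libraries of a developmental series of the rat pineal gland were compared between older and younger glands: postnatal days 20 and 40 (P20 and P40) against embryonic day 21 (E21) and postnatal day 5 (P5). They were chosen by time of day alone, and are 4 of the 8 libraries; the other 4 hold the same ages at mid-day. All animals were Sprague-Dawley rats kept in 14 h of light and 10 h of dark, with no treatment or altered gene in the labels. Mid-night means zeitgeber time 19 and mid-day zeitgeber time 7, in hours. Each library is 1 pool of glands, from 15 animals at E21, 19 at P5, 10 at P20 and 3 at P40 for the mid-night libraries, and from 13, 17, 13 and 3 for the mid-day libraries. Each side of the comparison thus holds 2 pooled libraries of different ages. The p-values of this comparison measure only the spread between these pools, and that spread includes whatever changed from E21 to P5 and from P20 to P40. A second test, of the night change minus the day change, has age as a block. Its p-values rest on how the night-to-day ratio differed between E21 and P5 and between P20 and P40, again between pools. An exact permutation test of 2 libraries against 2 cannot give a two-sided p under 0.333.

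The pineal gland makes melatonin at night. The circadian pacemaker of the hypothalamus reaches it through sympathetic nerves, which release noradrenaline in the dark. Noradrenaline acts on beta-1 and alpha-1 adrenergic receptors of the pinealocyte, cyclic AMP rises, and transcription factors that bind cyclic AMP response elements switch on a set of night genes. Aanat, the enzyme that makes N-acetylserotonin and sets the pace of melatonin synthesis in rodents, is the best known of them.

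Levels are given as FPKM, which counts sequenced fragments per length of transcript and per depth of library, for 16932 RefSeq transcripts, of which 9960 with at least 1 FPKM in at least 2 of the 8 libraries were tested. The mid-night libraries held 9328 (E21), 9533 (P5), 8598 (P20) and 8723 (P40) transcripts at 1 FPKM or more. Their depth relative to the deepest, P40, was 0.69, 0.57 and 0.59 for E21, P5 and P20, and 1 fragment in a transcript of 1 kb was worth 0.028 to 0.0489 FPKM. Of the defining pinealocyte markers, Tph1, the first enzyme of serotonin synthesis, stood at 331, 1740, 1930 and 2525 FPKM at E21, P5, P20 and P40, and all 11 markers on the list were tested. Markers of other tissues were present and moved with age. The summed FPKM of 15 choroid plexus markers was 18640 in the P5 mid-night library against 1030 to 1798 in the other mid-night libraries. Most of each sum was Ttr, at 1299, 17320, 686 and 773 FPKM from E21 to P40. The summed FPKM of 18 fibroblast and matrix markers was 1810, 1119, 380 and 303 from E21 to P40, and that of 8 erythroid markers 7119, 2949, 2036 and 1711. In bulk RNA, fewer cells of a type and less RNA per cell cannot be told apart.

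The promoters below belong to transcripts whose night level separated most from their day level as the gland matured, and are shown because cyclic AMP response elements are where that signal is known to reach genes. Of the 15 transcripts with the highest night change minus day change (described further on), 14 symbols have a promoter among the RefSeq sequences (build GRCr8), 17 promoters in all, and Irs2 has none there. Each run is the 250 bases before the start of transcription, 5′ to 3′ on the strand of the gene. Capitals mark the core site of the cyclic AMP response element, TGACG or CGTCA, and the palindrome TGACGTCA, in which both core sites overlap. Every promoter printed holds a core site, and none of those without one is printed. Slc15a1 lies at chr15:104949345-104949594 on the minus strand, Aanat at chr10:102326073-102326322 on the plus strand, Sik1 at chr20:9958647-9958896 on the minus strand and Dusp1 at chr10:17184603-17184852 on the plus strand. Nr4a1 lies at chr7:134259888-134260137 and Crem, at the second of its 3 listed starts, at chr17:58984547-58984796, both on the plus strand.
Slc15a1: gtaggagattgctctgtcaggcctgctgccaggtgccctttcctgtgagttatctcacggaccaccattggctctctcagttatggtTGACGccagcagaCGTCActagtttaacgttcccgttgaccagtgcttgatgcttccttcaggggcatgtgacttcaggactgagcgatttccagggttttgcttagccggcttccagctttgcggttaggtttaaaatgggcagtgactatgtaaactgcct
Aanat: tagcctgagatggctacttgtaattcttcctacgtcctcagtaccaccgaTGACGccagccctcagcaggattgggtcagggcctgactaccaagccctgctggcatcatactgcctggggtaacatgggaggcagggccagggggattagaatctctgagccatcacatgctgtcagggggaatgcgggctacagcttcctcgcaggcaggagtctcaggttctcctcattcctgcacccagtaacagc
Sik1: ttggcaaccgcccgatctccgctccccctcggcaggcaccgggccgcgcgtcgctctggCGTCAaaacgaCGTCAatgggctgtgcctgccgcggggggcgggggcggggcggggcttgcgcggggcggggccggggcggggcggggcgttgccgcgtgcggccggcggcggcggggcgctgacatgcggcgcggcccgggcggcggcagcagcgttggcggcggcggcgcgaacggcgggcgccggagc
Dusp1: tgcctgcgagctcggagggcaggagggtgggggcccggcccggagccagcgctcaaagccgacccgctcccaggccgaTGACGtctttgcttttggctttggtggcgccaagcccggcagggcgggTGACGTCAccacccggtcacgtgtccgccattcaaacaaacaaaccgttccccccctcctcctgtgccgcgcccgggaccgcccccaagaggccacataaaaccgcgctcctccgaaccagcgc
Nr4a1: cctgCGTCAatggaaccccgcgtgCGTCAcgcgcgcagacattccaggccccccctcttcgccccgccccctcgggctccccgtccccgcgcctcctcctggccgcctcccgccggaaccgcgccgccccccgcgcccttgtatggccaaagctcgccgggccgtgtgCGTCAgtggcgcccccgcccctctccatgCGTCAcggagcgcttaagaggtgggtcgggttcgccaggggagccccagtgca
Crem: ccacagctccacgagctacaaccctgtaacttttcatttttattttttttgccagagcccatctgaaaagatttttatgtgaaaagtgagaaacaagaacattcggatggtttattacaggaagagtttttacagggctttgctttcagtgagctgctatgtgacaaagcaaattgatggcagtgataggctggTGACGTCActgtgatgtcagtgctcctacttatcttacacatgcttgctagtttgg

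Counted from the start of transcription, the first bases of the core sites were at -163 and -150 in Slc15a1, at -200 in Aanat, at -191 and -180 in Sik1 and at -246, -226, -82 and -53 in Nr4a1. Dusp1 held the full palindrome at -124 and a further core site at -172. Crem held the palindrome at -56 at its second listed start and at -35 at the last one. The short repressor ICER is known to start inside the gene. By gene, 9 of the 14 symbols held a core site in any promoter, and the palindromes were those of Dusp1 and of the second and last Crem starts. On either strand, 11 of the 17 promoters held a core site and 3 held the palindrome. Among all 33469 promoters of the same length in the table the shares were 18.2% and 1.59%, and among the 8417 promoters of tested genes 28.9% and 3.14%. The E-box CACGTG occurred in 1 of the 17 promoters (Dusp1, at -107; 5.59% of all promoters) and the photoreceptor element TAATCC, or GGATTA on the other strand, in 1 (Aanat, at -106; 6.34% of all promoters). The Atp7b, Dclk3, Hhip, Ptch1 and Ribc2 promoters held no core site in this window. A match describes letters and shows no binding. The Slc15a1 transcript measured here spans only 2442 bases of the genome, and the gland is known to use a short product of this gene, so the promoter printed may not be the one in use.

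Between younger and older glands at mid-night, 2 transcripts rose and 3 fell past the test (limma over 4 libraries, Benjamini-Hochberg adjusted p under 0.05), which is 0.0201% and 0.0301% of those tested, while 3083 had an unadjusted p under 0.05. Slc15a1, a proton-coupled peptide transporter (rn4, chr15:106550095-106552536), was listed at 0 at E21 and stood at 1.50 FPKM at P5, 366 at P20 and 736 at P40. Both older libraries lie far above both younger ones, and the change was 8.36 ± 0.54 (SE, log2(FPKM + 1); limma adjusted p 0.0345). Cacna1h, the pore of a T-type calcium channel (chr10:14621371-14679051), stood at 0.69 and 0.736 FPKM in the younger libraries and at 16.1 and 22.1 in the older ones. Its change was 3.54 ± 0.23, with a limma adjusted p of 0.0345. At mid-day Cacna1h stood at 0.309, 0.628, 5.76 and 13.0 FPKM from E21 to P40, while Slc15a1 was listed at 0 at E21 and P5 and reached only 1.61 at P20 and 0.216 at P40.

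Of the 3 transcripts that fell at mid-night, Mdk and Cdkn1c are known from growth or its control. Mdk, the secreted growth factor midkine (chr3:76309988-76311345), stood at 72.4 and 87.1 FPKM at E21 and P5 and at 3.77 and 4.81 at P20 and P40. It fell by 3.93 ± 0.23 on the log2(FPKM + 1) scale (limma adjusted p 0.0345). Rbm3, a cold-inducible RNA-binding protein (chrX:26379302-26382738), stood at 94.5, 84.1, 9.36 and 8.18 FPKM and fell by 3.21 ± 0.22 (limma adjusted p 0.0356). Cdkn1c, an imprinted inhibitor of cyclin-dependent kinases (chr1:203835214-203837844), stood at 46.7, 26.7, 1.47 and 1.16 FPKM and fell by 3.98 ± 0.31 (limma adjusted p 0.0485). The other Cdkn1c transcript stood at 12, 7.36, 0.795 and 0.133 FPKM, and fragments may be shared between them. Mid-day levels of these genes went the same way: Mdk stood at 44.9, 45.4, 4.36 and 3.14 FPKM there, and Rbm3 at 108, 112, 19.2 and 10.4. None of the 5 passed without the P20 or without the P40 library, where 1 library stands for the older side and is assumed to vary like the younger ones (limma adjusted p up to 0.391). None of the 5 passed without the filter on low values either (limma adjusted p 0.152 for each), and with a pseudocount of 5 Cacna1h, Rbm3 and Cdkn1c did not (limma adjusted p 0.0709, 0.0676 and 0.0709). Rbm3 and Cdkn1c also missed the threshold with each library centred on its median (limma adjusted p 0.0516 and 0.0601), and their direction was kept. In a fit of all 8 libraries that pools their spread, 107 transcripts (1.07%) were higher and 425 (4.27%) lower. Without P5 or E21 the younger side is 1 library and all spread comes from P20 against P40, with 1 residual degree of freedom. The counts of 927 higher and 1927 lower without P5, and of 78 and 615 without E21, rest on that spread alone.

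Levels that did not overlap between the sides describe a wider set without a test. In 143 transcripts (1.44%) both older libraries were at least 2-fold above both younger ones on FPKM + 1, and in 446 (4.48%) at least 2-fold below. The split depends on scaling. The median night change of all transcripts was -0.25 on the log2 scale (-0.025 after quantile normalization), and changes are read against it. With each library centred on its median, an alternative chosen after seeing the data, 270 (2.71%) were higher and 216 (2.17%) lower. Without the P5 library the counts were 734 (7.37%) and 1226 (12.3%), and without P20 348 and 613, each with 3 libraries in place of 4. Without E21 they were 151 and 662, and without P40 184 and 635. At mid-day 100 (1%) and 213 (2.14%) were apart in the same way. Those shared were 41 higher (28.7% of the mid-night and 41% of the mid-day set) and 155 lower (34.8% and 72.8%).

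The widest gaps named here were ranked after values were seen. Behind Slc15a1 and Cacna1h came Psap, Ribc2, Mx2, Rgs7, Zrsr1, Crem, Dpt, Irak2, Etnk1 and A2m. Ribc2 stood at 0.0483 and 0.671 FPKM in the younger glands and at 13.4 and 18.4 in the older ones. It reached 1 FPKM in the older mid-night libraries only, so it passed the filter on low values through the side where it is high. Etnk1, an ethanolamine kinase of phospholipid synthesis, stood at 34.3 and 91.1 against 571 and 566 FPKM, and was among the 10 most abundant transcripts of the older mid-night libraries. Irak2, a kinase of interleukin-1 and Toll-like receptor signalling, stood at 0.712 and 4.10 against 31.5 and 32.3 FPKM. All 3 were chosen for their gap at night, while at mid-day Ribc2 reached 0.941, Irak2 3.52 and Etnk1 123 FPKM at P20. Dpt, a matrix protein, and A2m, a protease inhibitor, were instead as high by day: A2m stood at 99.0 and 156 FPKM at mid-night and at 105 and 156 at mid-day at P20 and P40. Zrsr1 was high in 1 library, at 227 FPKM in P40 against 34.9 in P20. The Psap transcript listed is 1 of 4 of its gene and was at 0.00869 FPKM at mid-day of E21 against 63.1 at P5, so its level is uncertain.

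Among the widest gaps downward, H19, an imprinted non-coding RNA of fetal tissue, stood at 233 and 41.1 FPKM at E21 and P5 and at 1.63 and 0.458 at P20 and P40. Igf2, the fetal growth factor beside it, stood at 158, 132, 17.0 and 7.52 FPKM, and Igfbp2, which binds such factors, at 29.2, 73.9, 3.82 and 2.02. Igfbp2 was highest in the P5 mid-night library, where choroid plexus markers were highest too, and the part of that tissue in its level was not tested. Top2a and Cdk1, which dividing cells need, stood at 29.2 and 18.7 FPKM at E21 and at 0.579 and 0.281 at P40. Tubb2b, a tubulin of young neurons, stood at 32.9, 8.69, 0.284 and 0.199 FPKM. Pmel, a pigment granule protein, stood at 15.6, 6.05, 0.063 and 0.0359 FPKM, and Stra6, a retinol receptor, at 19.7, 7.80, 0.503 and 0.537. These 8 were chosen for night levels that did not overlap between sides. The mid-day values followed the same course, as for H19 at 277, 23.4, 2.27 and 0.362 FPKM. Their limma adjusted p lay between 0.0524 and 0.0539.

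**Figure D1:**
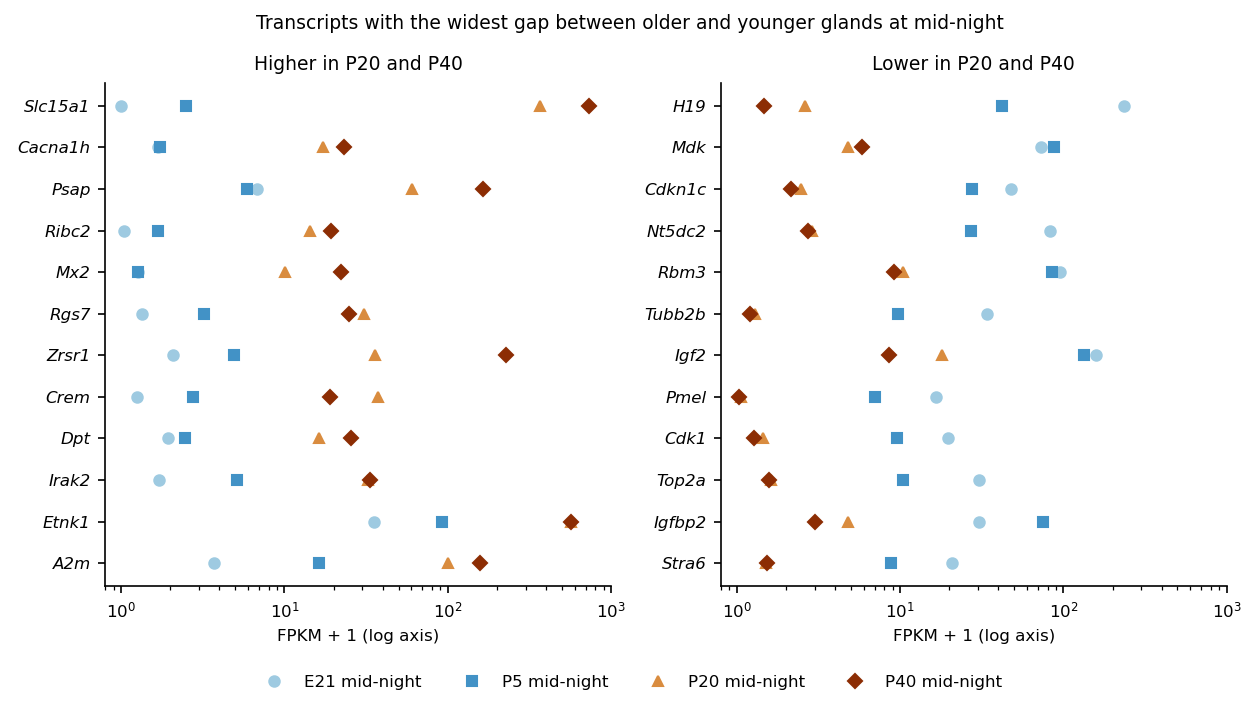
FPKM + 1 (log axis) in each of the 4 mid-night libraries for the 12 transcripts with the widest gap upward (left) and downward (right), 1 point per pooled library. Slc15a1 has the widest gap upward, from 1.50 FPKM at P5 to 366 at P20, and H19 the widest downward.

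The change between older and younger glands differed between mid-night and mid-day for a set of transcripts. In limma over all 8 libraries with age as block, the night change exceeded the day change for 61 transcripts (0.612%) and lay below it for 14 (0.141%). These calls rest on the age block and on the filter on low values: in limma, removing just one of them left 0 past the test in each direction (438 at an unadjusted p under 0.05 without the block and 1457 without the filter). For Aanat, described next, the limma adjusted p was then 0.995 and 0.0987. For the 61 the median night change was 2.16 and the median day change -0.342 on the log2 scale. The test that chose these transcripts compares the night-to-day ratio of older and younger glands, so the counts by age that follow describe the choice and support nothing. At least 2-fold more at mid-night than at mid-day was seen for 0 of the 61 at E21 (0.783% of all transcripts), 2 at P5 (1.55%), 60 at P20 (2.44%) and 59 at P40 (3.04%). The night change itself was at least 2-fold upward in 57, and in 11 the day change was at least 2-fold downward. The night levels were apart by 2-fold in 35 of them. Without either E21 library 5 transcripts were called higher, without either P5 library 7, and without the mid-day or mid-night library of P40 25 or 24, each with the age left out of the block. With each library centred on its median the counts were 95 and 9.

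**Figure D2:**
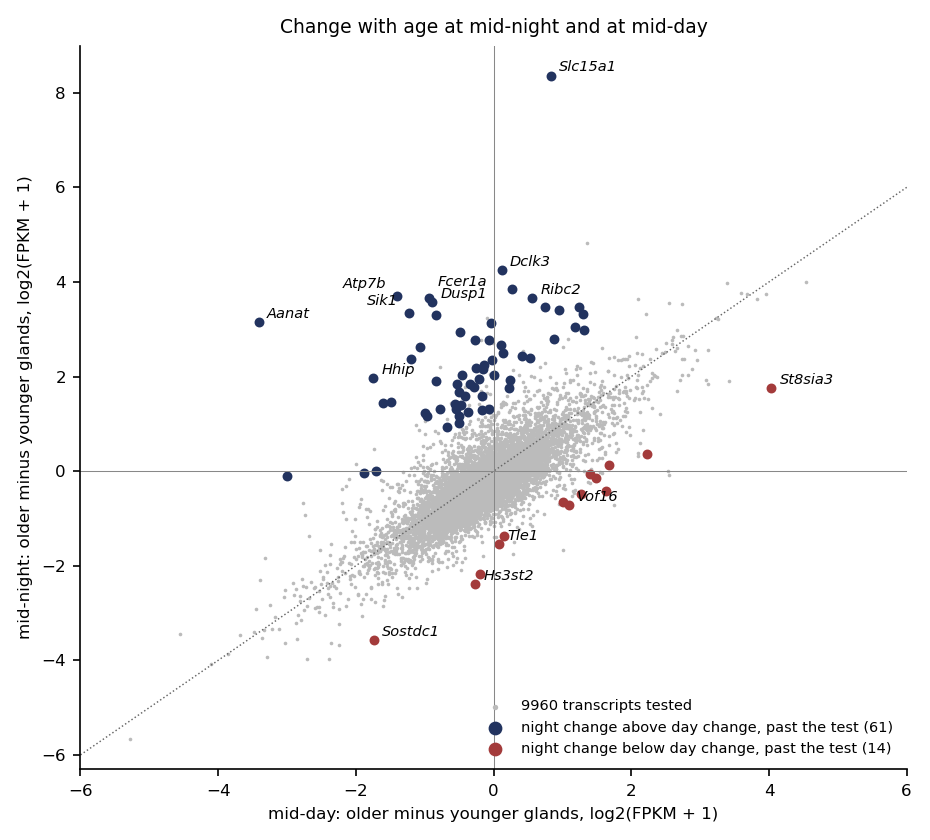
Change from younger to older glands at mid-night (vertical) against mid-day (horizontal), log2(FPKM + 1), for 9960 transcripts, with the dotted line where both are equal. The 61 transcripts past the test above the line sit mostly between day changes of -2 and 1.5, and Slc15a1 and Aanat lie farthest from the line.

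Aanat took opposite courses from P5 to P20 at night and by day (rn4, chr10:106709370-106713683). At mid-night it stood at 9.45, 225, 572 and 321 FPKM at E21, P5, P20 and P40, and at mid-day at 13.5, 153, 6.21 and 1.72 FPKM. The day and night libraries were close at E21 and P5 and 92.0-fold and 186-fold apart at P20 and P40. Its night change of 3.14 ± 1.41 did not pass the test on its own (limma adjusted p 0.193). The night change minus the day change was 6.56 ± 0.39 (limma adjusted p 0.00208). For Slc15a1 the difference was 7.53 ± 0.67 (limma adjusted p 0.00541), and here the night level rose while the day level was at most 1.61 FPKM at any age. Drd4, a dopamine receptor known from the pineal and retina, had night levels that overlapped, at 1.35, 26.7, 34.4 and 12.4 FPKM. Its day levels were 1.2, 32.1, 2.79 and 1.07 FPKM, and the difference was 3.04 ± 0.27 (limma adjusted p 0.00541). Cd24 and Parvb, named after their values were seen, also overlapped at night, at 158 to 301 and 10.0 to 19.8 FPKM, while by day Cd24 stood at 234, 187, 45.0 and 13.9.

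**Figure D3:**
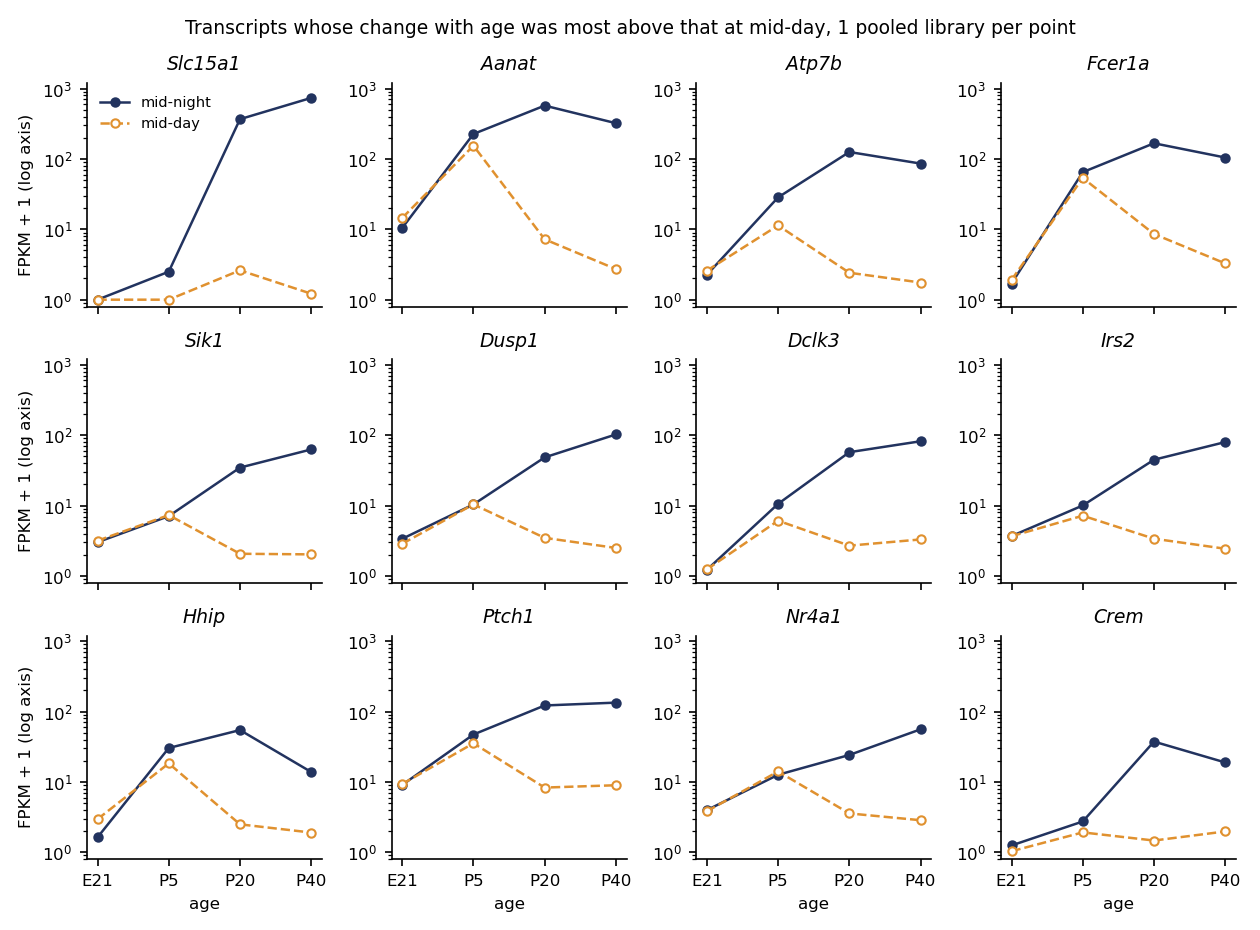
FPKM + 1 (log axis) by age at mid-night (filled) and mid-day (open) for the 12 transcripts with the highest night change minus day change, 1 pooled library per point. The transcripts were chosen for lines that lie further apart at P20 and P40 than at E21 and P5, as for Aanat at 572 against 6.21 FPKM at P20.

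The 24 tested genes of a list of genes known to peak at night in adults show the course as a group. Their median level at mid-night was 2.83, 12.4, 43.5 and 72.0 FPKM from E21 to P40, and at mid-day 2.74, 9.88, 3.22 and 2.59. None was at least 2-fold above its mid-day level at E21, 2 were at P5, 22 at P20 and all 24 at P40. The difference passed the test in 17 of the 24, all upward, against 0.612% of all transcripts. Night levels were apart upward by 2-fold in 14 (58.3% against 1.44% of all; 16 with median centring, against 2.71%). The night change alone was called for 1, Slc15a1 (0.0201% of all were called higher), and for 9 in the fit of all 8 libraries (1.07% of all). The median night change was 2.79 and the median day change -0.81, against -0.25 and -0.12 for all transcripts. The list was drawn from knowledge of the adult gland with results of these data known, so its direction is not independent evidence. The lists that follow were also chosen with results of these data known, and genes such as Crem, Sik1, Dusp1 and Nr4a1 recur between lists. Their shares beside those of all transcripts are descriptions. Without the P5 libraries the difference stayed above 0 in all 24 and past the test in 5.

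Several of these genes damp or end the cyclic AMP signal. Crem, whose internal start gives the repressor ICER, stood at 3.92, 11.9, 42.6 and 85.4 FPKM at mid-night for its longer transcript (rn4, chr17:62770632-62837670) and at 4.53, 6.63, 3.52 and 3.79 at mid-day. Its shorter transcript (chr17:62822635-62836430) stood at 0.25, 1.74, 36.4 and 17.9 at mid-night and never reached 1 FPKM by day. The shorter transcript thus passed the filter on low values through mid-night libraries alone. Both differences passed, at 3.43 ± 0.40 and 3.57 ± 0.43 (limma adjusted p 0.0189 and 0.0207), though fragments may be shared between the 2 transcripts. Sik1, a kinase that turns off CREB coactivators, stood at 2.02, 6.08, 33.7 and 61.8 FPKM at mid-night and at 2.17, 6.33, 1.07 and 1.03 at mid-day, with a difference of 4.57 ± 0.32 (limma adjusted p 0.00208). The phosphodiesterases Pde4b and Pde10a, which break down cyclic nucleotides, stood at 0.738, 12.9, 43.0 and 60.4 and at 1.31, 7.47, 43.1 and 33 FPKM at mid-night. By day neither passed 8.74 FPKM, and the differences were 2.45 ± 0.30 and 3.17 ± 0.41 (limma adjusted p 0.0207 and 0.0254). Rgs2, which speeds the end of G protein signalling, stood at 3.64, 5.54 and 9.27 FPKM and then 60.9 at P40, and its difference of 2.98 ± 0.52 missed the threshold (limma adjusted p 0.0606).

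Receptors and kinases that carry the signal are in the same pathway list. In the list of adrenergic and cyclic AMP genes, 30 were tested and 4 had higher night levels apart by 2-fold (13.3% against 1.44% of all). Lower levels apart were seen in 1 (3.3%, not above the 4.48% of all). With median centring the counts were 5 and 0 (2.71% and 2.17% of all), and without P5 8 and 2 (7.37% and 12.3% of all). The 4 apart upward are Crem, Pde4b, Sik1 and Pde10a, and in these alone of the 30 the difference passed the test. Adrb1, the beta-1 adrenergic receptor, stood at 9.12, 18.7, 29.0 and 41.3 FPKM at mid-night and at 10.9, 18.6, 19.4 and 26.7 at mid-day. Adra1b, the alpha-1b receptor, stood at 31.7, 43.3, 43.3 and 27.9 at mid-night. Prkaca, the catalytic subunit of protein kinase A, lay between 23.4 and 30.9 FPKM in all 4 mid-night libraries. Creb3l1, the 1 member apart downward, stood at 6.43, 4.63, 1.04 and 1.42 FPKM. Adrb1, Adra1b, Prkaca and Creb3l1 were named after their values were seen, and for none of them did the difference pass the test.

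Immediate early genes are induced quickly by many signals. Dusp1, a phosphatase of MAP kinases (rn4, chr10:16942912-16945696), stood at 2.37, 9.39, 47.4 and 102 FPKM at mid-night and at 1.86, 9.41, 2.48 and 1.50 at mid-day, with a difference of 4.46 ± 0.46 (limma adjusted p 0.0118). Nr4a1, an orphan nuclear receptor, stood at 2.97, 11.6, 23.1 and 54.9 at mid-night and at 2.82, 13.1, 2.56 and 1.85 at mid-day (difference 3.58 ± 0.45, limma adjusted p 0.0241). Both were alike by day and night at E21 and P5. Of 18 immediate early genes tested the difference passed in 3 (against 0.612% of all transcripts), among them Egr1 at 4.03, 7.37, 11.1 and 20.1 FPKM by night, and 2 had night levels apart upward (11.1% against 1.44%; 3 with median centring and 7 without P5, against 2.71% and 7.37% of all). Nr4a3 was apart, at 0.263 and 0.485 against 2.56 and 13.2 FPKM, but its difference of 2.42 ± 0.54 missed the threshold (limma adjusted p 0.119). Nr4a3 passed the filter on low values only through the older mid-night libraries. Dusp1, Nr4a1 and Nr4a3 are on the list of adult night genes too, so these shares are not separate evidence. Fos, the classic member, stood at 2.08, 6.72, 8.61 and 18.9 at mid-night and at 8.82 at mid-day of P40, and did not pass.

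Other night genes differ in role. Atp7b, whose locus gives a copper transporter and in the pineal the short night product PINA, stood at 1.25, 27.4, 124 and 85.0 FPKM at mid-night and at most 10.3 by day, with a difference of 5.09 ± 0.45 (limma adjusted p 0.00541). Fcer1a, the alpha chain of the IgE receptor, which the gland is known to express, stood at 0.697, 63.9, 166 and 104 at mid-night and at 0.907, 52.7, 7.57 and 2.28 at mid-day (4.59 ± 0.31, limma adjusted p 0.00208). Like Aanat, both were already high in the P5 library at mid-night. Irs2, an adaptor of the insulin receptor, stood at 2.69, 9.04, 43.9 and 79.0 FPKM, and Dclk3, a kinase, at 0.222, 9.58, 56.4 and 81.1. Their differences were 4.14 ± 0.42 and 4.14 ± 0.31 (limma adjusted p 0.0113 and 0.00285). Ptch1 and Hhip, both of which bind hedgehog ligands, had differences of 3.70 ± 0.26 and 3.72 ± 0.62 (limma adjusted p 0.00208 and 0.0491). Ptch1 stood at 8.05, 46.1, 121 and 133 FPKM at mid-night, and Hhip at 0.629, 29.3, 53.5 and 12.8, with older and younger glands apart for Ptch1 and overlapping for Hhip. Coq10b, a coenzyme Q binding protein, stood at 6.77, 37.9, 82.2 and 170 FPKM at mid-night, with a difference of 3.04 ± 0.47 (limma adjusted p 0.0398). Ribc2 had a difference of 3.10 ± 0.26 (limma adjusted p 0.00464). It passed the filter on low values only through the older mid-night libraries, so its difference is read as a description. Nptx1, Bsx, Camk1g, Mat2a and Drd4 were the other list members past the test, and Nptx1, a neuronal pentraxin, stood at 303 FPKM at mid-night of P40 against 59.6 at mid-day. Mapk6, Slc17a6, Per1, Junb, Dio2, Nr4a3 and Rgs2 missed the threshold.

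Dio2, the deiodinase that makes active thyroid hormone, was highest at P40. It stood at 0.325, 0.573, 4.87 and 31.0 FPKM at mid-night and under 0.5 FPKM in every mid-day library. Dio2 thus passed the filter on low values only through the older mid-night libraries. The sides did not overlap, yet the difference of 3.35 ± 0.69 missed the threshold (limma adjusted p 0.0939); from P20 to P40 it was higher by 2.45 on the log2 scale. Of the 9 thyroid hormone genes tested it was the only one apart upward (11.1% against 1.44% of all). Slco1c1, a thyroxine carrier also found in brain barriers, was the only one apart downward (11.1% against 4.48%), at 2.23, 7.98, 0.449 and 0.20 FPKM.

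Around Aanat, the other enzymes of the melatonin pathway and its cofactors had lower levels at E21 in most cases. Of the 12 genes tested, 0 had night levels apart by 2-fold (upward, 2 with median centring and 7 without P5, against 2.71% and 7.37% of all). The difference passed for 2, Aanat and Mat2a, against 0.612% of all. Mat2a, the catalytic subunit of methionine adenosyltransferase, which supplies the methyl donor, stood at 10.7, 18.5, 38.8 and 34.5 FPKM at mid-night and at 9.37, 25.4, 9.22 and 8.09 at mid-day (2.09 ± 0.27, limma adjusted p 0.0254). Asmt, which methylates N-acetylserotonin to melatonin, stood at 1.19, 109, 206 and 208 FPKM at mid-night and at 0.432, 106, 204 and 123 at mid-day, and its largest step came between E21 and P5 at both times. Ddc, the decarboxylase before Aanat, stood at 19.9, 128, 205 and 190 FPKM at mid-night and at 131 and 100 at mid-day of P20 and P40. Gch1 and Pcbd1, which serve the cofactor tetrahydrobiopterin, stood at 5.62, 41.2, 32.4 and 81.8 and at 14.1, 57.9, 71.1 and 75.9 FPKM. Pts, Qdpr, Mat2b and Ahcy lay between 3.51 and 19.4 FPKM in all mid-night libraries. None of Tph1, Asmt, Ddc, Gch1, Pcbd1, Pts, Qdpr, Mat2b and Ahcy passed for the night change or the difference.

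The circadian clock runs in most tissues and drives daily cycles of transcription. Of 16 clock genes tested, Cry2 was apart upward (6.2% against 1.44% of all; 1 with median centring, 4 without P5) and Arntl downward (6.2% against 4.48%; 0 with median centring, 1 without P5). With 1 gene in each direction these shares say nothing of the list as a group. Arntl, the partner of Clock in the activating complex, stood at 8.39, 6.18, 2.49 and 1.84 FPKM at mid-night and at 7.68, 7.20, 8.66 and 8.17 at mid-day. Its night change minus its day change was -1.54 ± 0.24 on the log2 scale (limma adjusted p 0.0432). Cry2, a repressor of that complex, stood at 5.13, 7.62, 21.4 and 38.1 FPKM at mid-night and at 4.21, 6.23, 7.80 and 6.21 at mid-day, with a difference of 1.65 ± 0.35 that missed the threshold (limma adjusted p 0.104). Per1, another repressor, stood at 6.15, 8.98, 11.6 and 23.8 at mid-night and at 2.92 and 2.25 at mid-day of P20 and P40 (2.05 ± 0.39, limma adjusted p 0.0727).

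For the 14 transcripts with a night change below the day change, the median night change was -0.575 and the median day change 1.18. They were chosen by the same ratio, so their counts by age are a description too. Mid-night levels at least 2-fold below mid-day were seen for 0 of them at E21 (1.24% of all transcripts) and at P5 (0.301%), 10 at P20 (2.72%) and 8 at P40 (1.34%). In 9 of them the day change was at least 2-fold upward, and in 5 the night change was at least 2-fold downward. St8sia3, a sialyltransferase, stood at 0.203, 0.661, 0.888 and 11.0 FPKM at mid-night and at 0.378, 0.770, 13.1 and 45.1 at mid-day (-2.28 ± 0.34, limma adjusted p 0.0355). Hs3st2, a heparan sulfate sulfotransferase, stood at 37.9, 11.3, 0.717 and 9.10 at mid-night against 11.1 and 35.4 at mid-day of P20 and P40 (-2.12 ± 0.33, limma adjusted p 0.0414). Both were far lower in the P20 library at night than by day. Ptpn21, a phosphatase, stood at 28.7, 7.63, 1.89 and 3.30 at mid-night and at 25.4, 9.01, 12.3 and 14.1 at mid-day (-1.98 ± 0.26, limma adjusted p 0.0254). Vof16 stood at 19.5, 18.8, 12.3 and 10.4 FPKM at mid-night and at 21.0, 28.3, 50.2 and 56.1 at mid-day (limma adjusted p 0.0384). Tle1, a corepressor, stood at 15.9, 6.64, 2.42 and 3.46 against 11.9, 6.59, 9.47 and 9.36 (limma adjusted p 0.0463). Dhrs3, a retinal reductase, overlapped at night and was higher in older glands by day, at 11.1 and 14.2 FPKM against 4.49 and 4.83 (limma adjusted p 0.0414). Tpm1 is 1 of 6 transcripts of its gene, was listed at 0 at mid-day of E21 and is uncertain (limma adjusted p 0.0398). Sostdc1, a choroid plexus marker, was at 65.7 FPKM in the P5 mid-night library against 14.8 at mid-day, where the choroid plexus markers were highest. The part of choroid plexus tissue in its call (limma adjusted p 0.0474) was not tested. Without the P5 libraries 2 transcripts were called in this direction, without E21 1, and without P20 or P40 4 each.

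Genes of cell division and connective tissue had lower levels in older glands at mid-night. Of 28 cell cycle genes tested, 18 were apart downward by 2-fold (64.3% against 4.48% of all) and 0 upward, and the median change was -1.94. With median centring 12 were apart downward (2.17% of all) and without P5 22 (12.3% of all). By day 14 were apart downward, against 2.14% of all. Top2a and Cdk1 are given above, and Mcm6, of the replication helicase, stood at 15.8, 5.71, 1.3 and 2.05 FPKM. Prc1, of the spindle midzone, stood at 17.7, 10.3, 1.89 and 4.08 at mid-night. By day it stood at 22.8, 8.50, 8.03 and 12.3 FPKM, so its older and younger levels overlapped there. Its difference of -1.46 ± 0.28 missed the threshold (limma adjusted p 0.0727). Of 17 fibroblast and matrix markers 11 were apart downward (64.7% against 4.48% of all; 10 with median centring and 12 without P5, against 2.17% and 12.3%). Their median change was -2.30. Col1a1, a chain of fibrillar collagen, stood at 269, 120, 22.7 and 14.5 FPKM, Col3a1 at 309, 173, 42.5 and 32.5, and Postn at 163, 59.5, 11.2 and 6.24. Dpt was the 1 member apart upward, at 0.924, 1.47, 15.2 and 24.5. None of the collagen transcripts passed the 4-library test (limma adjusted p 0.0524 to 0.0583 for Col1a1, Col1a2 and Col3a1). In the fit of all 8 libraries 11 of the 17 were lower past the test, against 4.27% of all.

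Markers of vessels and of the choroid plexus, a tissue that lies near the gland, were lower in part. Of 8 endothelial markers 4 were apart downward (50% against 4.48% of all; 1 with median centring and 6 without P5, against 2.17% and 12.3%). Cdh5, the cadherin of endothelial junctions, stood at 12.8, 8.20, 3.46 and 2.95 FPKM and Emcn at 14.9, 9.82, 3.22 and 3.13. Of 5 smooth muscle and pericyte markers 3 were apart downward (60% against 4.48% of all; 0 with median centring), among them Pdgfrb at 12.3, 11.3, 4.08 and 3.67. Of 15 choroid plexus markers 5 were apart downward (33.3% against 4.48% of all; 4 with median centring and 5 without P5, against 2.17% and 12.3%). Of the 15, 0 were at 0 in every mid-night library. Ttr, which the choroid plexus secretes, stood at 1299 FPKM at E21, 17320 at P5, 686 at P20 and 773 at P40. Mfrp and Htr2c, both defining markers of that tissue, had 5.80 and 4.19 FPKM at E21, 74.2 and 56.4 at P5 and under 1 in both older libraries. The P5 mid-night library thus stands apart for these markers, and what that adds to other transcripts high in it was not tested. Of 5 erythroid and 11 microglial markers tested, 0 were apart.

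**Figure D4:**
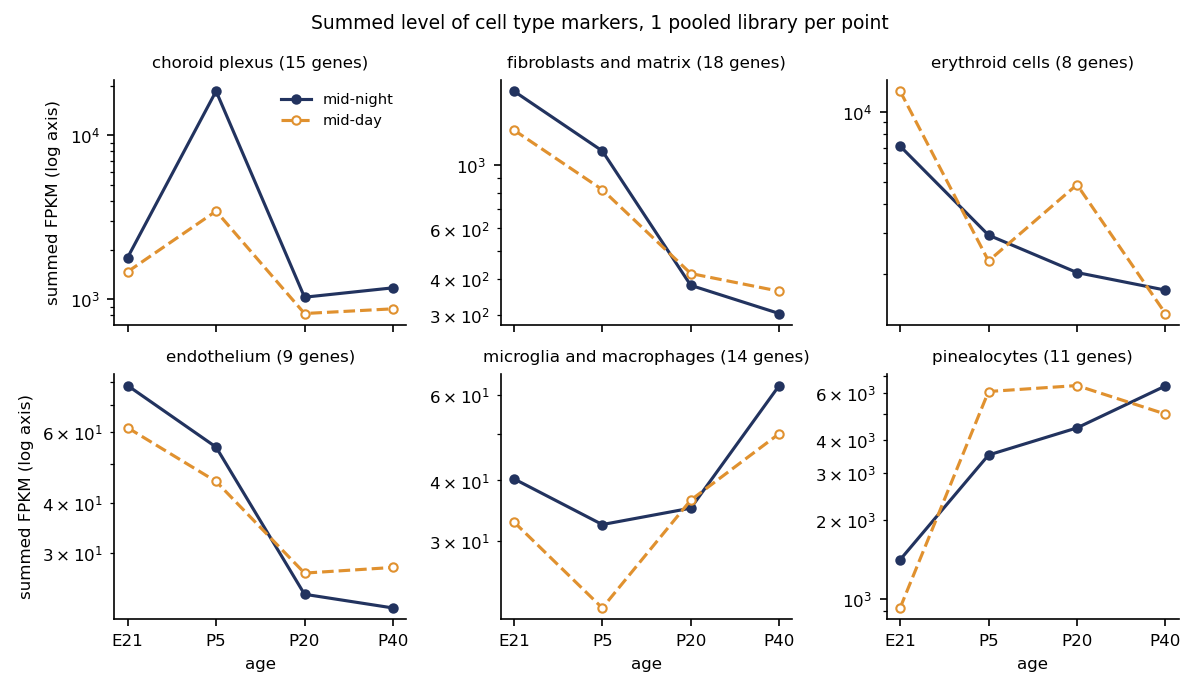
Summed FPKM (log axis) of 6 marker lists by age at mid-night (filled) and mid-day (open), 1 pooled library per point. Choroid plexus markers peak in the P5 mid-night library at 18640 FPKM, of which Ttr alone gives 17320. Matrix and endothelial markers are lower at P20 and P40 than at E21 and P5.

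Of 16 genes of immature neurons 4 were apart downward (25% against 4.48% of all; 2 with median centring and 12 without P5, against 2.17% and 12.3%). Dcx, a microtubule protein of migrating neurons, stood at 15.7, 7.95, 0.715 and 0.672 FPKM at mid-night, and Tubb2b is given above. Among 7 oncofetal and imprinted genes 3 were apart downward (42.9% against 4.48% of all), H19, Igf2 and Cdkn1c. Among 18 pineal transcription factors 2 were apart upward and 2 downward (11.1% each, against 1.44% and 4.48% of all; 3 and 1 with median centring, against 2.71% and 2.17%). Bsx, a homeobox factor, stood at 15.0, 28.2, 65.0 and 118 FPKM at mid-night and at 21.5, 25.9, 16.8 and 17.1 at mid-day, and passed for the difference (2.49 ± 0.35, limma adjusted p 0.0312). Prox1 stood at 3.29, 5.53, 13.1 and 24.1 at mid-night. Lhx9, a factor of the early gland, stood at 15.0, 4.06, 0.652 and 0.528 FPKM, and Nrl at 4.26, 1.58, 0.232 and 0.034. The lower levels of Lhx9 and Nrl were seen by day too, and their differences did not pass.

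Some of the antigen presentation and interferon genes had higher levels in older glands at mid-night, and none passed the 4-library test. Of 28 tested, 8 were apart upward (28.6% against 1.44% of all) and 0 downward, with a median change of 1.06 at mid-night and 1.04 at mid-day. With median centring 11 were apart upward (2.71% of all) and without P5 14 (7.37% of all). Cd74, which escorts class II molecules to the cell surface, stood at 0.478, 4.29, 13.2 and 20.7 FPKM and RT1-Da, a class II chain, at 0.0936, 2.03, 5.85 and 8.92. Irf7 and Mx2, both of the interferon response, stood at 0.706, 3.16, 10.2 and 21.6 and at 0.269, 0.266, 9.04 and 21.1. All 4 were highest in the P40 library, and their mid-day values at P40 were 19.1, 7.81, 19.9 and 17.7 FPKM. Irf8 alone of the 28 passed for the difference (1.52 ± 0.25, limma adjusted p 0.0474), at 7.29 and 9.52 FPKM by night and 1.27 and 2.48 by day in older glands. Summed microglial and macrophage markers were 40.3, 32.4, 35.1 and 62.8 FPKM from E21 to P40, so they too were highest at P40, and their part in these levels was not tested.

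Some genes of light detection, which pinealocytes share with photoreceptors, were higher in older glands at both times of day, and a few genes of secretion were higher at mid-night. Of 33 phototransduction genes 5 were apart upward (15.2% against 1.44% of all; 6 with median centring, 19 without P5, against 2.71% and 7.37%), and 6 by day against 1% of all. Downward 2 were apart (6.1%, near the 4.48% of all) and 0 by day. The difference passed for 0. Gngt2, a transducin gamma subunit, stood at 65.7, 321, 730 and 1538 FPKM at mid-night and at 48.9, 337, 698 and 1045 at mid-day. Grk1, rhodopsin kinase, stood at 2.43, 20.0, 53.1 and 48.2, Slc24a1, a cation exchanger, at 1.56, 9.01, 31.5 and 40.5, and Guca1a, a guanylate cyclase activator, at 0.33, 9.06, 27.4 and 41.1. Of 21 genes of secretory granules and exocytosis 3 were apart upward (14.3% against 1.44% of all) and 1 downward (4.8%, near the 4.48% of all). With median centring 4 were apart upward (2.71% of all) and without P5 14 (7.37% of all). By day 2 were apart in each direction (1% and 2.14% of all). Scg2, a granin, stood at 1.2, 32.2, 73.1 and 152 FPKM at mid-night and Pcsk1n at 0.971, 3.41, 10.8 and 18.5. Syt4, a synaptotagmin, was the 1 member with a difference past the test, at 4.12, 22.0, 68.9 and 77.4 by night and 5.02, 11.9, 7.37 and 7.50 by day (2.83 ± 0.35, limma adjusted p 0.0227). Pcsk2, a prohormone convertase, was the 1 member apart downward, a share near that of all transcripts, at 15.3, 1.40, 0.178 and 0.047 FPKM.

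**Figure D5:**
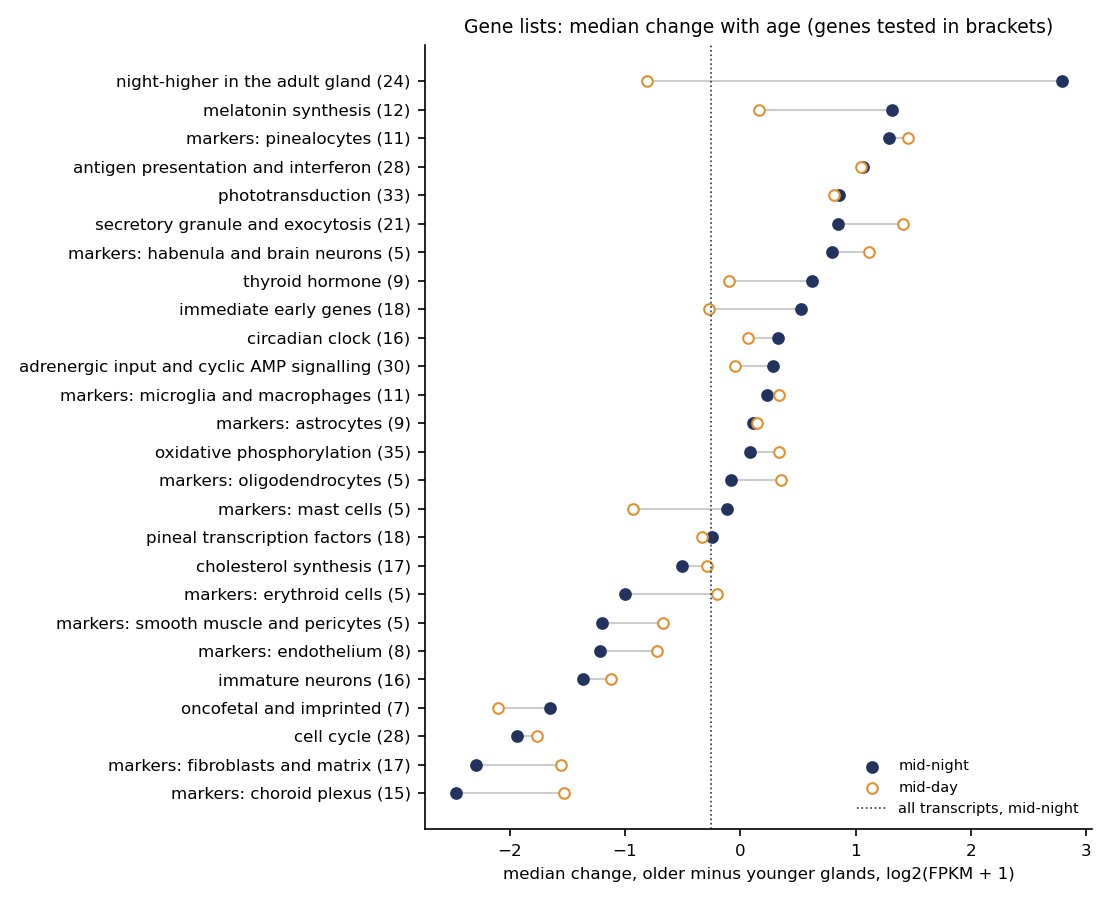
Median change from younger to older glands, log2(FPKM + 1), at mid-night (filled) and mid-day (open) for each gene list with 5 or more genes tested. The list of adult night genes has the widest distance between the times of day, 2.79 at mid-night and -0.81 at mid-day; the dotted line is the median of all transcripts at mid-night, -0.25.

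The 3 intervals of the night series were unlike. From E21 to P5, 739 transcripts (7.42%) were at least 2-fold higher and 295 (2.96%) lower on FPKM + 1. From P5 to P20, 197 (1.98%) were higher and 966 (9.7%) lower, and from P20 to P40 178 (1.79%) and 41 (0.412%). With 1 library at each age these steps carry no test. Among transcripts with 10 FPKM or more in the higher library, the largest upward steps from E21 to P5 were those of Asmt, Fcer1a, Mpp4 and Aanat, and Mpp4, a scaffold protein of photoreceptors, went from 4.51 to 137 FPKM. The largest downward were Grm6, from 38.9 to 2.99, Pcp4, from 488 to 60.4, and Nkain3, from 10.5 to 0.48. From P5 to P20 the largest were Slc15a1, Crem, Psap and Cacna1h upward, and downward the choroid plexus markers Mfrp, Sostdc1 and Htr2c. From P20 to P40 the largest were St8sia3, Zrsr1, Rgs2 and Dio2 upward. St8sia2, another sialyltransferase, went from 14.4 to 2.47 FPKM over that step, Hhip from 53.5 to 12.8 and Eln, elastin, from 16.1 to 4.06. The most abundant transcripts of the older glands at mid-night were Tph1, Hbb, Gngt2, Gngt1, Ttr, Cox6c, Snap25, Cd63, Etnk1 and Syp, and of these only Gngt2 and Etnk1 were apart by 2-fold from the younger glands.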

How the data were processed

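RNA from pooled rat pineal glands was sequenced, 1 library for each of 4 ages at mid-day and mid-night. The authors deposited FPKM per RefSeq transcript for every library. Reads were aligned with TopHat 1.3.1 and quantified with Cufflinks 1.2.0 on build rn4, per the submitters' processing notes. Read counts were not used here, so depth is known only as relative depth from the smallest steps between low values. Strand use is not given in the sources used here, so antisense and overlapping genes cannot be told apart, and transcripts of genes with several are uncertain.

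From these values, log2(FPKM + 1) was tested with limma 3.58.1 (R 4.3.3; empirical Bayes with trend, Benjamini-Hochberg adjustment over 9960 transcripts with 1 FPKM or more in 2 libraries, threshold 0.05). A fold change on this scale understates the change of low genes. The night change used the 4 mid-night libraries and the night change minus the day change all 8, with age as block. The script was tested on simulated data. Named transcripts are those past the test with the largest estimates, members of 2 lists, the largest single steps and the highest levels. Because 5 passed at mid-night, the widest gaps and the list members apart were named after values were seen. Members and lists were chosen with earlier results of these data known. Alternatives were other pseudocounts, filters, scalings, moderation settings, 1 transcript per symbol, 1 fit of all libraries, no age block and leaving out each library; median centring and left-out libraries for levels that do not overlap, and for list counts, were added after seeing the data. Promoters are RefSeq sequences of build GRCr8, matched by gene identifier, and no coordinates were converted between builds.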

Additional observations from a re-analysis of the deposited data

Results flagged for a closer look

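The change from younger to older glands differed between mid-night and mid-day for the named transcripts that follow, by limma on all 8 libraries with age as block and Benjamini-Hochberg adjustment. The values are the night change minus the day change on the log2(FPKM + 1) scale. The night change was above the day change for Slc15a1 (7.53), Aanat (6.56), Atp7b (5.09), Fcer1a (4.59), Sik1 (4.57), Dusp1 (4.46), Dclk3 (4.14), Irs2 (4.14), Hhip (3.72), Ptch1 (3.70), Nr4a1 (3.58), Crem (3.57), Pde10a (3.17), Ribc2 (3.10) and Coq10b (3.04). It was below the day change for St8sia3 (-2.28), Hs3st2 (-2.12), Tpm1 (-2.05), Ptpn21 (-1.98), Sostdc1 (-1.83), Vof16 (-1.80), Dhrs3 (-1.75) and Tle1 (-1.62). The calls held unevenly under the other settings, left-out libraries included. Of 18 settings, Aanat, Atp7b, Fcer1a, Dclk3 and Ptch1 were called in 16, Sik1 in 14 and Slc15a1 in 10. Coq10b was called in 8, Hhip and Ptpn21 in 7, and Vof16 and Dhrs3 in 6. Sostdc1 was called in 5, Tle1 in 3, and Tpm1 in 5 of 17. Ribc2 passed the filter on low values only through the older mid-night libraries.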

How the results depend on the processing

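For the night change no paired analysis was possible because no older library shares a replicate with a younger one. The night change minus the day change did pair the day and night library of each age, with age as block, and without that block, as without the filter on low values, 0 transcripts passed in either direction, against 61 and 14. The night change was called for 2 higher and 3 lower transcripts. It gave 40 and 238 with a pseudocount of 0.1, 1 and 1 with 5, 0 and 0 without the filter, 22 and 81 with a filter at 5 FPKM, 30 and 132 with the filter applied to the mid-night libraries, 4 and 5 with robust moderation, 22 and 104 with 1 transcript per symbol, and 107 and 425 in 1 fit of all 8 libraries. Quantile normalization and median centring each left 1 lower. Leaving out 1 library gave 0 to 927 higher and 0 to 1927 lower. The day change was called for 0 in each direction (1802 at an unadjusted p under 0.05), 4 and 3 in the fit of all libraries, and 0 to 1060 and 0 to 1731 without 1 library.

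For the night change minus the day change, a pseudocount of 5 gave 33 higher and 4 lower, a pseudocount of 0.1 6 lower, median centring 95 and 9, and robust moderation 31 lower. Leaving out 1 library gave 5 to 60 higher and 1 to 4 lower. Levels apart by 2-fold, 143 higher and 446 lower, became 28 and 41 at 4-fold, 65 and 80 on FPKM + 5, and 270 and 216 with median centring. Leaving out 1 library gave 151 to 734 higher and 613 to 1226 lower. The cause of these shifts was not tested.

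Signs were compared only for transcripts named for a call, for the widest gaps or from the melatonin and night gene lists. Among these, no called value changed sign, though every one lost its call in some setting. Among their values not called, the night change turned for Qdpr with median centring (0.0958) and for Slc17a6 with quantile normalization (-0.049), and the difference for Asmt with a pseudocount of 0.1 (-0.27). Leaving out 1 library gave night changes of -0.34 (without E21) to 3.21 for Drd4 and of -0.23 (without P40; -0.14 without P5) to 0.53 for Slc17a6. It gave differences of -0.045 (without P5) to 0.21 for Tph1, -0.31 (without P40; -0.23 without P5) to 0.43 for Asmt, -0.22 (without P40) to 0.51 for Qdpr and -0.84 to 0.13 (without P5) for Mat2b. With 1 pooled library for each age and time, animals within an age were not measured apart, and low levels rest on few fragments.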
